A study of Mus musculus with 6 samples.

Results

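The 10 genes described here encode proteins through which p53 promotes cell death, namely *Bax*, *Bbc3*, *Pmaip1*, *Fas*, *Tnfrsf10b*, *Perp*, *Aen*, *Phlda3*, *Trp53inp1* and *Pidd1*. They were found by name in the deposited expression table of 54167 genes, where each had 1 row. The table holds 6 colorectal tumors of C57BL/6J mice, of which 3 grew in *Trp53* fl/fl mice, which have loxP sites around intact *Trp53* alleles, and 3 in *VP* mice, which carry the same floxed alleles together with Cre under the villin promoter. Villin is made in the intestinal epithelium, so Cre removes *Trp53* there and not in the stroma, vessels and immune cells of a tumor. All mice were 8-week-old males at the start and were treated alike with 10 mg/kg of the carcinogen azoxymethane (AOM), then with repeated rounds of 2.5% dextran sulfate sodium (DSS), a salt that inflames the colon, for 7 days each, and their tumors were taken on day 98. The labels number the tumors as replicates without saying whether each came from a separate mouse, so p-values measure the spread between these tumors.

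p53 is a transcription factor that is stabilized by DNA damage and other stress and then induces genes that stop the cell cycle or kill the cell. Its death targets act at several points. In the mitochondrial pathway, BH3-only proteins neutralize the Bcl-2 family survival proteins and set free BAX and BAK, which open the outer mitochondrial membrane and release cytochrome c onto the caspase-activating apoptosome. In the extrinsic pathway, death receptors at the cell surface recruit FADD and caspase-8. In the intestine, p53-dependent death of crypt cells after irradiation is a textbook example of this response.

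Expression was measured as TPM, in which values are divided by transcript length and each tumor is scaled to nearly the same total (999964 to 1000067). The number of reads behind a TPM value is not known. Between 14857 and 15234 genes reached 1 TPM in a tumor, and 15117 genes that reached it in 3 or more tumors were tested, all 10 cell death targets among them. Fold changes are differences of mean log2(TPM + 1), *VP* minus *Trp53* fl/fl, with limma's test and Benjamini-Hochberg adjustment over all genes tested. The scale understates the change of weakly expressed genes.

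*Trp53* itself was at 124.94, 99.30 and 147.45 TPM in *Trp53* fl/fl tumors, against 38.45, 32.79 and 27.83 TPM in *VP* tumors. *VP* tumors thus kept 26.7% of the mean level of *Trp53* fl/fl tumors (limma log2 fold change -1.87, adjusted p = 0.0207). A bulk tumor cannot show whether such a difference comes from fewer cells that make an mRNA or from less mRNA in each cell.

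Of the 10 cell death targets, 9 had a negative log2 fold change, against 60.8% of all genes tested. *Phlda3* alone passed the adjustment, with lower expression in *VP* tumors, which was so for 0.0860% of the 15117 genes. At an unadjusted p-value under 0.05, 4 of the 10 were lower in *VP* tumors (*Phlda3*, *Bbc3*, *Bax* and *Trp53inp1*) and none was higher, where 8.0% of all genes were lower, 4.51% were higher and 12.5% differed in either direction. The whole *VP* group was below the whole *Trp53* fl/fl group for 4 targets, *Phlda3*, *Bbc3*, *Bax* and *Pidd1*, and for 13.3% of all genes. *Fas* was the 1 target with every *VP* tumor above every *Trp53* fl/fl tumor, as were 6.03% of all genes. The median log2 fold change of the 10 targets was -0.33, beside -0.07 for all genes tested.

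**Figure D1:**
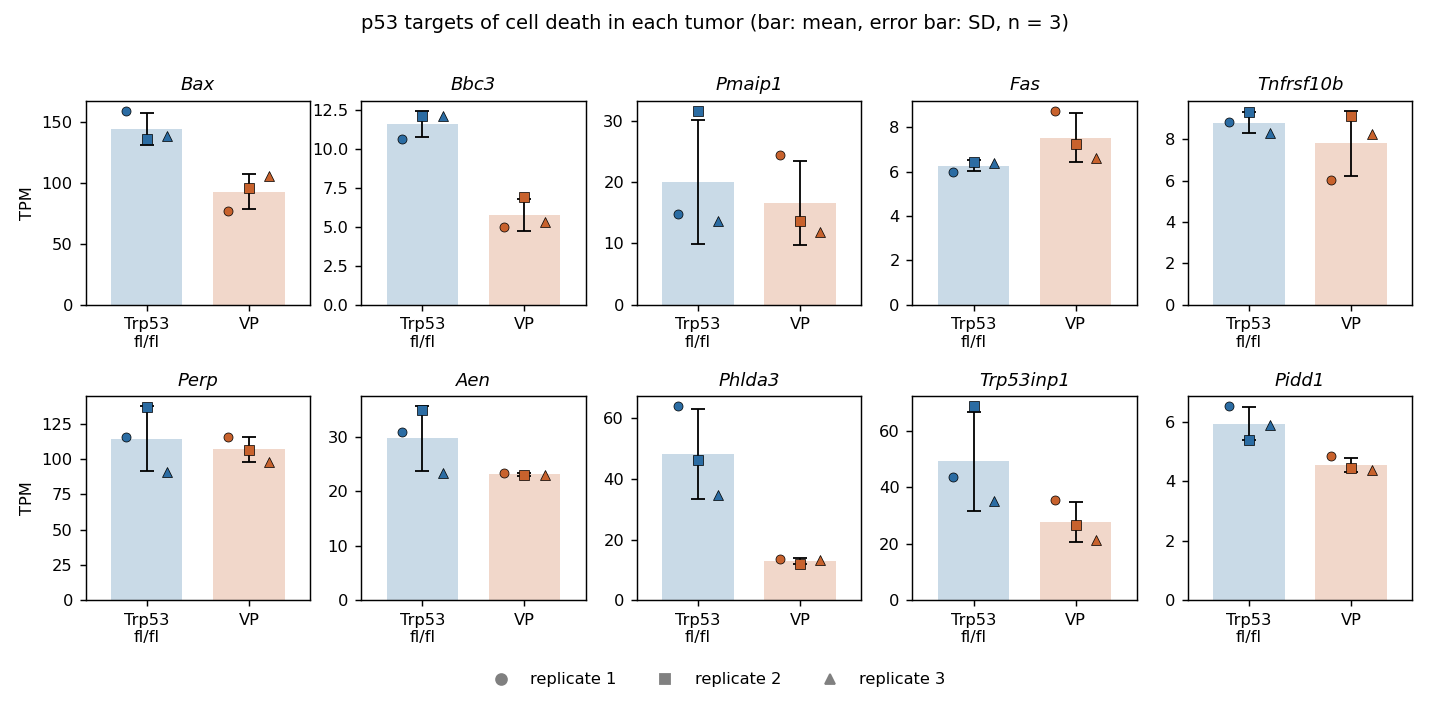
TPM of the 10 p53 targets of cell death in each tumor, with 1 panel per gene, bars for the mean of 3 tumors, error bars for the SD and symbols for the replicates. The 3 *VP* tumors sit below the 3 *Trp53* fl/fl tumors for *Bax*, *Bbc3*, *Phlda3* and *Pidd1*, above them for *Fas*, and overlap them for *Pmaip1*, *Tnfrsf10b*, *Perp*, *Aen* and *Trp53inp1*.

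*Phlda3* (ENSMUSG00000041801, chromosome 1 from 135766119 to 135769136 on the plus strand) encodes a small pleckstrin homology domain protein that keeps the survival kinase Akt from the membrane. It was at 63.88, 46.26 and 34.54 TPM in *Trp53* fl/fl tumors, against 13.55, 11.88 and 13.42 TPM in *VP* tumors. The *VP* values lay close together and well under the lowest *Trp53* fl/fl value. *Phlda3* fell to 26.9% of its mean in *Trp53* fl/fl tumors, a share like that of *Trp53* itself. The log2 fold change was -1.78 (standard error 0.22, limma adjusted p = 0.0447), and 36 of the 15117 genes had a lower one. The direction held in all 15 alternative settings of scaling, filter, model or tumors left out, between -2.15 and -1.56. The adjusted p-value ran from 0.00687 to 0.205 in them and was above 0.05 in 9. It rose to 0.0961 and 0.205 without *Trp53* fl/fl replicate 1 or 2, and to 0.171, 0.194 and 0.107 without *VP* replicate 1, 2 or 3.

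Among the targets that act at mitochondria, *Bbc3* and *Bax* were lower in *VP* tumors without passing the adjustment, and *Pmaip1* did not separate the genotypes. *Bbc3* (ENSMUSG00000002083, chromosome 7 from 16308393 to 16318205, plus strand) encodes PUMA, a BH3-only protein that binds all the main Bcl-2 family survival proteins. Its values were 10.64, 12.11 and 12.10 TPM in *Trp53* fl/fl tumors and 5.01, 6.92 and 5.30 TPM in *VP* tumors. The groups did not overlap, and the *VP* mean was 49.4% of the *Trp53* fl/fl mean. The log2 fold change of *Bbc3* was -0.91 (standard error 0.16, 95% interval -1.28 to -0.54, limma adjusted p = 0.123, unadjusted p = 0.000616).

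*Bax* (ENSMUSG00000003873, chromosome 7 from 45461697 to 45466898, minus strand), the pore-forming effector, had the highest mean TPM of the 10 targets in *Trp53* fl/fl tumors, though *Perp* was above it in replicate 2. There it was at 159.14, 135.58 and 137.92 TPM, against 77.13, 95.51 and 105.44 TPM in *VP* tumors. No *VP* tumor reached the lowest *Trp53* fl/fl tumor, and the *VP* mean was 64.3% of the *Trp53* fl/fl mean. The log2 fold change of *Bax* was -0.64 (standard error 0.14, 95% interval -0.97 to -0.31, limma adjusted p = 0.242, unadjusted p = 0.00263). The annotation places *Gm45808*, a gene with exons in common with *Bax* on the same strand, over it, and *Gm45808* stayed at or below 0.6 TPM. In each of the 15 alternative settings *Bbc3* and *Bax* kept a negative log2 fold change and an unadjusted p-value under 0.05. With array quality weights, which weight each tumor by its fit, both had an adjusted p-value under 0.05 (0.0401 and 0.0348), but that setting called 323 genes in place of 25. It weighted *Trp53* fl/fl replicate 1 at 7.29 and the other tumors at 0.444 to 1.04, and the estimation of the weights did not converge.

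*Pmaip1* (ENSMUSG00000024521) encodes NOXA, a BH3-only protein that mainly binds MCL1. It was the most variable of the 10 targets, at 14.81, 31.68 and 13.68 TPM in *Trp53* fl/fl tumors and 24.49, 13.64 and 11.84 TPM in *VP* tumors. In each genotype 1 tumor stood well above the other two, and the groups overlapped. *Pmaip1* had a log2 fold change of -0.22 with a 95% interval from -1.10 to 0.66 (limma adjusted p = 0.818), an interval that reaches from lower to higher expression. Without *Trp53* fl/fl replicate 2, the highest tumor, it was 0.15.

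RefSeq promoters on GRCm38.p6, from 250 bases before to 50 after a transcription start, were at hand for 6 of the 10 targets (*Phlda3*, *Bbc3*, *Bax*, *Aen*, *Pidd1* and *Fas*). They were searched for the p53 decamer, the 10-base unit of the p53 response element, which reads the same on both strands and has a fixed CNNG core. An exact decamer stood in 8.36% of the 32851 promoters, and a pair of adjacent decamers with intact cores and at most 3 mismatches in all stood in 1.38%. The second pattern can include the first. The limit of 3 mismatches was chosen after sequences had been seen. The promoters of *Phlda3* (chr1:135765835-135766134, plus strand), *Bbc3* (chr7:16309333-16309632, plus strand), *Bax* (chr7:45466849-45467148, minus strand) and *Aen* (chr7:78895808-78896107, plus strand) are printed 5′ to 3′ with matches to either pattern in capitals. *Phlda3*, *Bbc3* and *Bax* are shown as the targets with the lowest unadjusted p-values, and *Aen*, whose groups overlapped, for its match.
Phlda3: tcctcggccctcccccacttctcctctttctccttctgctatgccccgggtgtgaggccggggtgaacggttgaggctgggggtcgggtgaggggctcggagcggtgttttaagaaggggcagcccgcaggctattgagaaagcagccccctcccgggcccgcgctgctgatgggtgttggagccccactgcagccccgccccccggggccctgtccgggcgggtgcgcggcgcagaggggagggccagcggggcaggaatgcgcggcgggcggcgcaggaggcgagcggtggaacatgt
Bbc3: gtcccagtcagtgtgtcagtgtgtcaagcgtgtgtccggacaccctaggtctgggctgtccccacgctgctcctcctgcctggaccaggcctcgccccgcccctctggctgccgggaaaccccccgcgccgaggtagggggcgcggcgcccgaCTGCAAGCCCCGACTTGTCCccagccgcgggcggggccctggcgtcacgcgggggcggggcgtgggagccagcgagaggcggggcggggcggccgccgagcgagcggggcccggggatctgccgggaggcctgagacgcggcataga
Bax: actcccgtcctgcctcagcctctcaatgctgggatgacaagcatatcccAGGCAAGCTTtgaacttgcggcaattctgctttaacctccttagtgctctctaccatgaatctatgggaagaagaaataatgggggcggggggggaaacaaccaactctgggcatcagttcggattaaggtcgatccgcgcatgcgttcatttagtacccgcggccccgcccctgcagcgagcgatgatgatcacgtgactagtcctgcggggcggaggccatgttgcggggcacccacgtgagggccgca
Aen: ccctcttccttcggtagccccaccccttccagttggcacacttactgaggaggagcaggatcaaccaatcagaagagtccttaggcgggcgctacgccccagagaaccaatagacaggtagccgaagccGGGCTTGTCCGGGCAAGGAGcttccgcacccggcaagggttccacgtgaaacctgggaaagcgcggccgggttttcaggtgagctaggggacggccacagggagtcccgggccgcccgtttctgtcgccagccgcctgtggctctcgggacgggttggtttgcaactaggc

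The *Bbc3* promoter held the decamer pair CTGCAAGCCCCGACTTGTCC, with 3 mismatches, beginning 97 bases before the start, while the promoters at its other two RefSeq starts held no match. *Aen* held the pair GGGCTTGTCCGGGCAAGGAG, also with 3 mismatches, beginning 121 bases before this start and so 10 bases after the start of its other RefSeq promoter, and the first decamer of this pair was exact. *Bax* held 1 exact decamer, AGGCAAGCTT, beginning 201 bases before the start. *Phlda3*, the target with the largest decrease, had no match to either pattern in this window, nor did *Pidd1* and *Fas*. A match is a string of letters and not a measured binding site, and these windows leave out introns and distant sites. Decamers cut by a window's edge were not counted, and pairs with bases between the decamers were not searched. The *Phlda3* window ends in gaacatgt, which fits the decamer as far as it goes. The sequences are of the reference strain.

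The death receptors *Fas* and *Tnfrsf10b* did not pass the test in either direction. *Fas* (ENSMUSG00000024778, chromosome 19 from 34290666 to 34327772, plus strand) encodes the receptor of FAS ligand. It was at 5.98, 6.43 and 6.39 TPM in *Trp53* fl/fl tumors, with 8.75, 7.25 and 6.59 TPM in *VP* tumors. The genotypes did not overlap, but the nearest tumors were 6.43 and 6.59 TPM. *Fas* had a log2 fold change of 0.22 (standard error 0.15, 95% interval -0.13 to 0.58, limma adjusted p = 0.548), the 1 positive value among the 10 targets, and it stayed positive in all 15 alternative settings. It was 0.12 without *VP* replicate 1, the highest tumor, and 0.05 when each tumor was centred on epithelial markers.

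*Tnfrsf10b* (ENSMUSG00000022074, chromosome 14 from 69767472 to 69784411, plus strand) encodes a death receptor for TRAIL. Its values were 8.82, 9.31 and 8.30 TPM in *Trp53* fl/fl tumors and 6.05, 9.13 and 8.25 TPM in *VP* tumors. *VP* replicate 1 was low and the other two *VP* tumors lay among or next to the *Trp53* fl/fl tumors. *Tnfrsf10b* had a log2 fold change of -0.17 (95% interval -0.57 to 0.23, limma adjusted p = 0.684), and of -0.02 without *VP* replicate 1.

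*Pidd1* (ENSMUSG00000025507, chromosome 7 from 141438113 to 141444025, minus strand) encodes the scaffold on which CRADD and caspase-2 assemble into the PIDDosome. It had the lowest mean TPM of the 10 targets in both genotypes, though *Fas* was below it in *Trp53* fl/fl replicate 1. Its values were 6.52, 5.39 and 5.89 TPM in *Trp53* fl/fl tumors and 4.83, 4.43 and 4.37 TPM in *VP* tumors. The groups did not overlap, and the *VP* mean was 76.6% of the *Trp53* fl/fl mean. *Pidd1* had a log2 fold change of -0.32 (95% interval -0.66 to 0.02, limma adjusted p = 0.416). Its partners *Cradd* and *Casp2* had log2 fold changes of 0.02 and -0.03, with overlapping groups.

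The remaining targets act in the nucleus, at membranes or in autophagy. *Trp53inp1* (ENSMUSG00000028211, chromosome 4 from 11156431 to 11174379, plus strand) encodes a stress protein that assists p53 in the nucleus and takes part in autophagy. It was at 43.62, 68.84 and 35.27 TPM in *Trp53* fl/fl tumors, with 35.48, 26.84 and 21.25 TPM in *VP* tumors. The genotypes met at *Trp53* fl/fl replicate 3 and *VP* replicate 1, which differed by little. The log2 fold change of *Trp53inp1* was -0.77 (standard error 0.28, limma adjusted p = 0.345, unadjusted p = 0.0258), and the unadjusted p-value was under 0.05 in 12 of 15 alternative settings. It was 0.0677, 0.0579 and 0.0837 without *Trp53* fl/fl replicate 2 and *VP* replicates 2 and 3, and the log2 fold change was -0.51 without the first of these.

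*Aen* (ENSMUSG00000030609, chromosome 7 from 78895854 to 78911209, plus strand) encodes an exonuclease that degrades DNA and RNA in dying cells. Its values were 30.97, 34.92 and 23.28 TPM in *Trp53* fl/fl tumors and 23.43, 22.95 and 23 TPM in *VP* tumors. The *VP* tumors were nearly equal, and *Trp53* fl/fl replicate 3 fell within their range. *Aen* had a log2 fold change of -0.33 (95% interval -0.70 to 0.04, limma adjusted p = 0.435).

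*Perp* (ENSMUSG00000019851, chromosome 10 from 18845020 to 18857073, plus strand) encodes a membrane protein that also builds desmosomes, the junctions that hold epithelial cells together. It was at 115.75, 136.87 and 90.96 TPM in *Trp53* fl/fl tumors, with 115.85, 106.79 and 98.13 TPM in *VP* tumors. All 3 *VP* tumors lay inside the range of the *Trp53* fl/fl tumors. The log2 fold change of *Perp* was -0.08 (95% interval -0.46 to 0.30, limma adjusted p = 0.845), close to the median of all genes, and it was 0.06 without *Trp53* fl/fl replicate 2. Locations are those of the GENCODE M21 annotation of GRCm38.

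**Figure D2:**
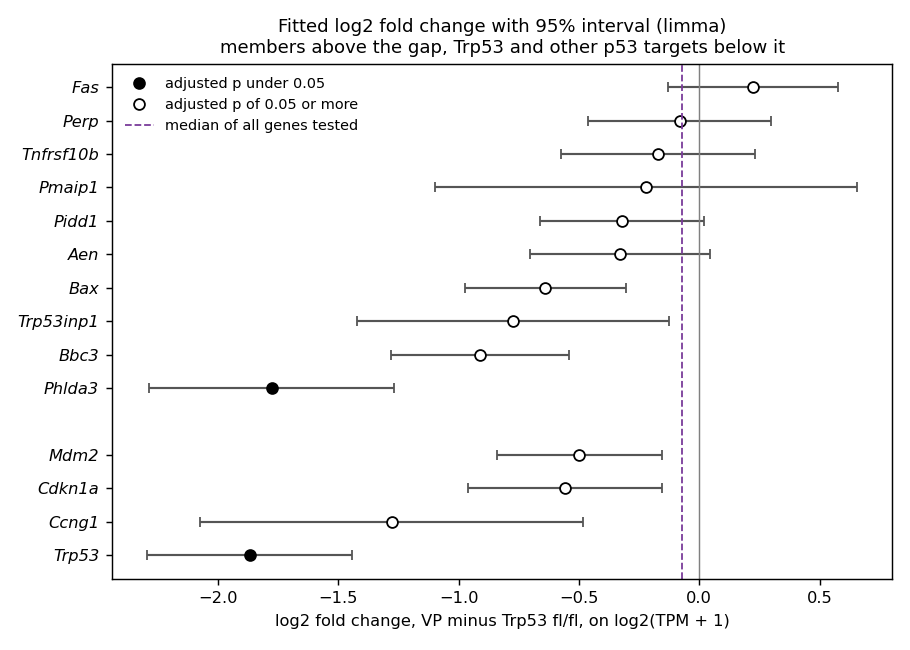
Log2 fold changes, *VP* minus *Trp53* fl/fl, of the 10 cell death targets and, under the gap, of *Trp53* and 3 other p53 targets, with bars for the 95% intervals. *Phlda3* (-1.78) and *Trp53* (-1.87) are the filled points, which passed the adjustment, and the intervals of *Fas*, *Perp*, *Tnfrsf10b*, *Pmaip1*, *Pidd1* and *Aen* include 0.

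The targets also varied among tumors of 1 genotype. *Trp53* fl/fl replicate 2 was the highest of the 6 tumors for 6 of the 10 targets, and *Trp53* fl/fl replicate 3 was the lowest of its genotype for 6 and the highest for none. *Trp53* mRNA had another order, highest in replicate 3 and lowest in replicate 2. Within the *VP* tumors, replicate 1 was the highest for 7 of the 10 targets and also had the most *Trp53* mRNA of the 3. The coefficient of variation in *Trp53* fl/fl tumors ran from 3.97% for *Fas* to 50.3% for *Pmaip1*, and in *VP* tumors from 1.14% for *Aen* to 41.1% for *Pmaip1*. In position the targets were scattered apart from chromosome 7, which carries 4 of them (*Bbc3*, *Bax*, *Aen* and *Pidd1*).

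Other p53 targets gave a scale for these differences. *Ccng1*, which encodes cyclin G1, was at 44.86, 73.81 and 26.25 TPM in *Trp53* fl/fl tumors and 18.09, 19.80 and 15.49 TPM in *VP* tumors (log2 fold change -1.28, limma adjusted p = 0.280). *Cdkn1a*, for the cell cycle inhibitor p21, and *Mdm2*, for the ubiquitin ligase that degrades p53, had smaller differences, -0.56 and -0.50 on the log2 scale (limma adjusted p = 0.317 and 0.311). For all 3 genes the *VP* tumors lay below the range of the *Trp53* fl/fl tumors.

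Beyond the 10 targets, 7 lists of the cell death machinery held 47 genes, of which 43 were tested. None passed the adjustment. An unadjusted p-value under 0.05 was reached by 3 that were lower and 2 that were higher in *VP* tumors, together 11.6% of the 43, beside 12.5% of all genes tested. Their median log2 fold change was -0.05.

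Among the other BH3-only proteins and effectors of the Bcl-2 family, 7 of 8 were tested, 4 with a negative and 3 with a positive log2 fold change. *Bmf*, which encodes a BH3-only protein tied to the cytoskeleton, was at 28.41, 25.34 and 37.23 TPM in *Trp53* fl/fl tumors, with 18.91, 12.88 and 24.27 TPM in *VP* tumors. Its groups did not overlap, and the log2 difference was -0.69 (limma adjusted p = 0.341). *Bak1*, for the effector that acts beside BAX, had 108.47, 108.98 and 129.33 TPM in *Trp53* fl/fl tumors and 109.55, 119.78 and 133.94 TPM in *VP* tumors. The genotypes overlapped and the log2 fold change of *Bak1* was 0.07 (95% interval -0.22 to 0.36, limma adjusted p = 0.834). No survival protein of the Bcl-2 family differed at an unadjusted p-value under 0.05. *Mcl1* and *Bcl2l1* (which encodes BCL-XL), the most abundant, and *Bcl2* had log2 fold changes of -0.23, 0.00 and -0.31. Every *VP* tumor was below every *Trp53* fl/fl tumor for *Mcl1*, as for 13.3% of all genes, but the nearest tumors were 92.01 and 93.07 TPM. The groups overlapped for *Bcl2l1* and *Bcl2*.

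BAX is held in check by survival proteins, so the ratio of *Bax* to *Bcl2* was computed in each tumor, where the scaling of TPM cancels. On the log2 scale it was 4.73, 4.17 and 4.85 in *Trp53* fl/fl tumors and 3.87, 4.49 and 4.55 in *VP* tumors. The genotypes overlapped, and the difference of -0.28 was smaller than the spread in either genotype (exact permutation test, two-sided, p = 0.5, where 3 tumors against 3 cannot go below 0.1). It was -0.06 without *VP* replicate 1 and -0.48 without *Trp53* fl/fl replicate 2. *Bcl2* was weakly expressed, at 4.26 to 7.55 TPM over all tumors. *Mcl1* was at 88.98 to 117.17 TPM and *Bcl2l1* at 56.80 to 69.94 TPM. The ratios of *Bax* to *Mcl1* and *Bcl2l1* were not tested. The ratio to *Bcl2* thus does not describe *Bax* against the survival genes as a group.

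Of the death ligands, receptors and receptor complex proteins, 8 of 9 were tested. *Tnf*, which encodes an inflammatory cytokine that can also kill, was at 9.01, 8.18 and 16.75 TPM in *Trp53* fl/fl tumors and 19.63, 17.92 and 23.55 TPM in *VP* tumors. The *VP* tumors were all higher (log2 fold change 0.85, limma adjusted p = 0.317). *Fasl*, for the ligand of FAS, was below 1 TPM in every tumor, at most 0.45. *Tnfsf10*, which encodes TRAIL, was at 6.94 to 13.12 TPM in *Trp53* fl/fl tumors and 10.63 to 15.96 TPM in *VP* tumors, and its groups overlapped. The adaptor *Fadd*, the initiator *Casp8* and its inhibitor *Cflar* had log2 fold changes of -0.20, 0.02 and -0.32, all with overlapping groups. The log2 ratio of *Casp8* to *Cflar* had a mean of 1.28 with an SD of 0.16 in *Trp53* fl/fl tumors, and in *VP* tumors a mean of 1.63 with an SD of 0.26, again with overlap (exact permutation test, two-sided, p = 0.3).

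Downstream, 6 genes of the apoptosome and the caspases were described and all were tested, 5 with a negative and 1 with a positive log2 fold change. *Casp6*, which encodes an effector caspase, was at 119.55, 98.20 and 95.12 TPM in *Trp53* fl/fl tumors and 70.23, 53.63 and 96.06 TPM in *VP* tumors. *VP* replicate 3 lay among the *Trp53* fl/fl tumors, and the log2 fold change of *Casp6* was -0.54 (limma adjusted p = 0.382, unadjusted p = 0.0400). *Apaf1*, the scaffold of the apoptosome and itself a p53 target, and *Casp9*, the initiator caspase that it activates, had log2 fold changes of -0.24 and -0.09, with overlapping groups.

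The inhibitor of apoptosis proteins and their antagonists numbered 7, all tested. *Birc3*, which encodes the inhibitor cIAP2 and is induced by NF-κB, was at 31.27, 34.60 and 30.13 TPM in *Trp53* fl/fl tumors, with 43.05, 42.55 and 53.54 TPM in *VP* tumors. Its groups did not overlap (log2 fold change 0.52, limma adjusted p = 0.273). The other 6 had log2 fold changes between -0.38 and 0.05.

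Of 10 further p53 targets linked to cell death, 9 were found by name and tested, 5 with a negative and 4 with a positive log2 fold change. *Zmat3*, which encodes an RNA-binding protein, was at 11.86, 10.85 and 9.50 TPM in *Trp53* fl/fl tumors and 5.59, 6.04 and 6.60 TPM in *VP* tumors. Each *VP* tumor was well below each *Trp53* fl/fl tumor. Its log2 fold change was -0.73 (standard error 0.14, limma adjusted p = 0.182, unadjusted p = 0.00135), between those of *Bax* and *Bbc3*. The other 8 had log2 fold changes from -0.25 to 0.43.

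**Figure D3:**
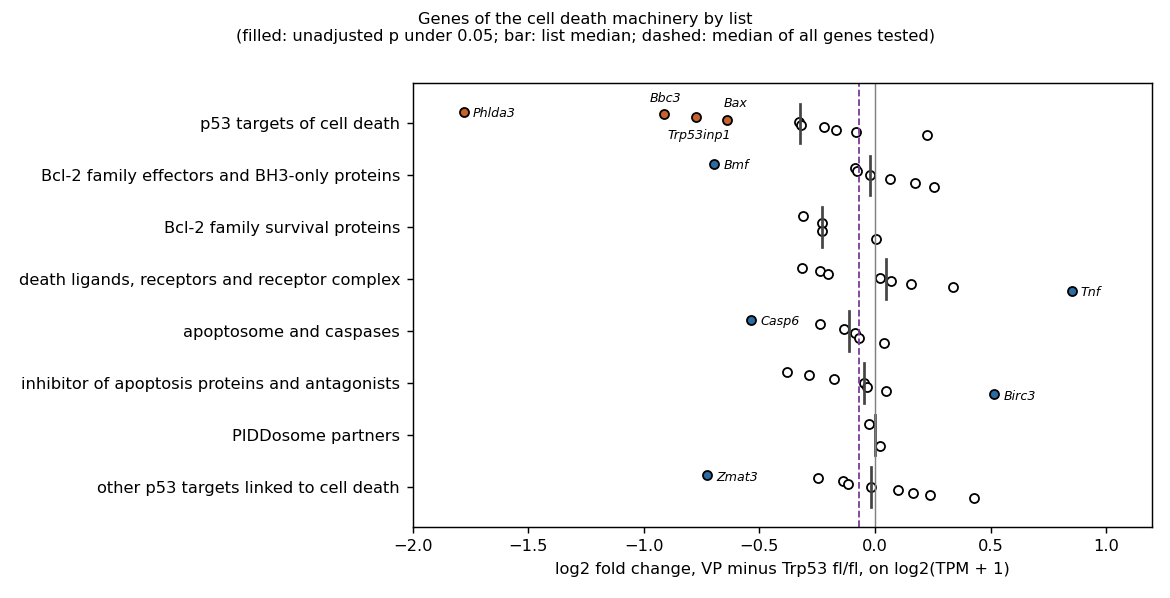
Log2 fold changes, *VP* minus *Trp53* fl/fl, of the 10 cell death targets (top row) and of 7 lists of the cell death machinery, 1 point per tested gene, filled where the unadjusted p-value was under 0.05, with a bar at each list's median. The top row has 4 filled points, all below 0, and the other lists together have 5, of which *Bmf*, *Casp6* and *Zmat3* are below 0 and *Tnf* and *Birc3* above it.

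Marker genes of the cell types in a tumor were compared as well. The 12 markers of epithelium, the tissue in which Cre is active, summed to between 10484.9 and 10807.6 TPM in *Trp53* fl/fl tumors and between 11844.7 and 12857.3 TPM in *VP* tumors. Of the 12, 10 had a positive log2 fold change, as did 39.2% of all genes tested, and 3 (*Krt19*, *Cldn7* and *Lgals4*) were higher at an unadjusted p-value under 0.05. *Epcam*, *Cdh1*, *Krt18*, *Krt20* and *Cdx2* were at 96.9% to 102% of their *Trp53* fl/fl means. All 12 were above 10 TPM in every tumor. When each tumor was centred on these markers, the log2 fold changes of *Phlda3*, *Bbc3* and *Bax* were -1.95, -1.09 and -0.81. The part of the epithelial share in the lower values of these targets was not tested. Centring shifts all genes alike and moved the median of all genes from -0.07 to -0.25.

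Of 8 neutrophil markers, all 6 tested had a positive log2 fold change, as did 39.2% of all genes tested. Only *Ngp* passed the adjustment (log2 fold change 4.37, limma adjusted p = 0.00804). At an unadjusted p-value under 0.05, 4 of the 6 were higher, beside 4.51% of all genes. Besides *Ngp* these were *S100a8*, *S100a9* and *Cxcr2*, with log2 fold changes of 1.97, 1.73 and 0.72 and groups that did not overlap. *Csf3r* and *Ly6g* had log2 fold changes of 0.07 and 0.21, with overlapping groups. The list summed to 342.2 to 652.2 TPM in *Trp53* fl/fl tumors and 1003.3 to 1736.7 TPM in *VP* tumors, and most of this sum was *S100a8* and *S100a9* in every tumor. *Mpo* and *Elane* were below 1 TPM in every tumor. *Tnf* and *Birc3*, higher at an unadjusted p-value under 0.05 in the limma fit, stood beside this higher sum. So did *Fas*, whose interval of -0.13 to 0.58 included 0. The part of the neutrophil sum in these genes was not tested. The summed TPM of the other lists overlapped between the genotypes, with exceptions among single genes. The 10 leukocyte markers summed to 100.2 to 122.8 TPM in *Trp53* fl/fl tumors and 112.2 to 137.1 TPM in *VP* tumors, and *Cd8a* was below 1 TPM in every tumor. Of the 7 tested, 5 had a negative and 2 a positive log2 fold change, where 60.8% of all genes had a negative one. *Cd68*, a macrophage marker, was higher in every *VP* tumor (log2 fold change 0.53, unadjusted p = 0.00487 in the limma fit). *Cd68* and the epithelial marker *Cldn7* lie near *Trp53* on chromosome 11, from 69664213 and 69964779 beside 69580359. The part of this position in their values was not tested. The macrophage markers *Adgre1* and *Csf1r* had log2 fold changes of -0.27 and -0.08, with overlapping groups. The 7 fibroblast markers summed to 841.2 to 928.8 against 708.4 to 1048.1 TPM, 4 with a negative and 3 with a positive log2 fold change. *Lum* and *Pdgfra* were lower in every *VP* tumor (-0.57 and -0.56, unadjusted p = 0.0119 and 0.0102 in the limma fit). *Col1a1*, *Col1a2* and *Thy1* had positive values of 0.25, 0.11 and 0.29, with overlapping groups. The 5 endothelial markers summed to 72.2 to 88.9 against 87.3 to 95.8 TPM, where *Vwf* was higher in every *VP* tumor (0.36, unadjusted p = 0.0176). The 5 smooth muscle markers summed to 449.3 to 730.2 against 388.9 to 1194.1 TPM, and each overlapped. The part of these cell types in the targets' values was not tested.

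**Figure D4:**
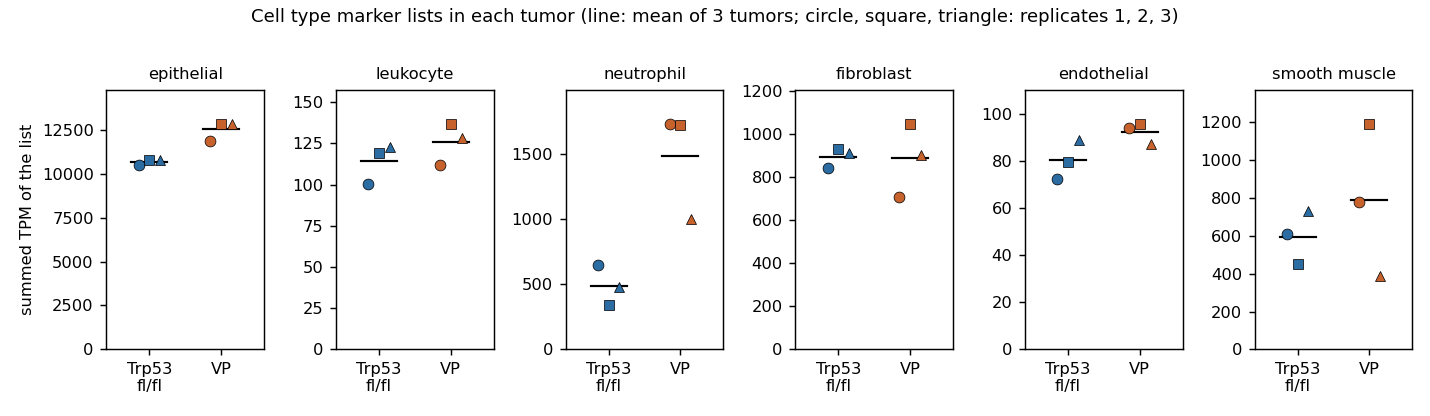
Summed TPM of 6 cell type marker lists in each tumor, with symbols for the replicates and a line at the mean of 3 tumors. The epithelial and neutrophil sums are higher in the 3 *VP* tumors than in the 3 *Trp53* fl/fl tumors, and the other 4 sums overlap.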

How the data were processed

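Poly(A)-selected RNA of 6 tumors, 3 per genotype, was sequenced from both ends. The authors deposited TPM per gene with 2 decimals, not pooled. The submitters' processing notes name HISAT2, StringTie and the mouse build mm9, without versions, and the annotation is not given in the sources used here. The file holds no coordinates, and those printed are of GRCm38. Since all TPM of a tumor share 1 total, a gene's value also moves with the rest, and the depth is unknown. Columns were assigned through the codes in the sample labels.

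From the deposited TPM, log2(TPM + 1) was compared by limma 3.58.1, run in R 4.3.3 with a linear model per gene over all 6 tumors and trended empirical Bayes, with Benjamini-Hochberg adjustment over all genes tested. The script was tested on simulated data. Ratios were compared with the exact permutation test of scipy 1.17.1. The promoters came from RefSeq.

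The 10 targets and all lists were chosen with earlier results of these data known. Genes named are the 10 targets, *Trp53*, *Mdm2*, *Cdkn1a*, *Ccng1*, partners of the targets, and, from each list, up to 3 genes with the largest difference at an unadjusted p-value under 0.05 or else the 2 most abundant. *Gm45808* and the cell type markers named singly were chosen after their values were seen. The lists and their counts leave out some genes that are not reported here. Alternatives were a pseudocount of 0.1, no filter or a filter at 5 TPM on the mean, quantile normalization, rescaling by median of ratios, centring on epithelial markers, the replicate number as a block, no trend, array quality weights, and each tumor left out.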

Additional observations from a re-analysis of the deposited data

How the results depend on the processing

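The count of cell death targets with an adjusted p-value under 0.05 was 1, and became 0 with no expression filter, with median-of-ratios rescaling, with the replicate block and without the trend, 3 with array quality weights (*Bax*, *Bbc3* and *Phlda3*), and from 0 to 1 on leaving out 1 tumor (1 only without *Trp53* fl/fl replicate 3). The count at an unadjusted p-value under 0.05 stayed between 3 and 6. Over all genes, 25 passed the adjustment, which became 7 with no filter, 45 with epithelial centring, 10 with the replicate block, 323 with array quality weights, whose estimation did not converge, and between 3 (without *Trp53* fl/fl replicate 1) and 23 (without *VP* replicate 3) on leaving out 1 tumor, with 14, 9, 7 and 5 without *Trp53* fl/fl replicates 2 and 3 and *VP* replicates 1 and 2. Genes higher in *VP* tumors made up 48% of the 25, and 60%, 33.3% and 70% with median-of-ratios rescaling, epithelial centring and the replicate block. The median of the 10 targets, -0.33, was -0.50 with epithelial centring, and -0.46 to -0.29 on leaving out 1 tumor. Single log2 fold changes turned positive for *Pmaip1* with array quality weights (0.007) and without *Trp53* fl/fl replicate 2 (0.146), and for *Perp* without that tumor (0.056). Over the tumors left out they ran from -0.519 to 0.146 for *Pmaip1* and from -0.237 to 0.056 for *Perp*. The *Bax* to *Bcl2* and *Casp8* to *Cflar* differences moved by less than 1 SD in every alternative tried, but ran from -0.483 to -0.061 and from 0.234 to 0.493 over the tumors left out. Deviations from the group means of tumors with the same replicate number had correlations of 0.019, -0.052 and 0.018 across genes. Such correlations cannot show whether the numbers pair the tumors, which the labels do not say. The main fit did not pair them. The cause of each change was not tested. No depth or counting error can be given for TPM.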

Other observations

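Of the p53 targets outside the cell death group, the promoters of *Cdkn1a* and *Ccng1* held the closer matches to the pair of p53 decamers, with 1 mismatch each. In *Cdkn1a* the match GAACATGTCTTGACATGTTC began 51 bases before 1 of its 2 RefSeq starts, and in *Ccng1* the match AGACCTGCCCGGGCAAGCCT began 195 bases before the start. *Trp53* held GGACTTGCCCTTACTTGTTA, with 3 mismatches, 75 bases before its start, and *Mdm2* held an exact decamer, GAACTTGCCT, without a pair. These sequences were looked up after the expression values were known.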
